A study of Mus musculus with 7 samples.

Results

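Autophagy delivers worn proteins and organelles to the lysosome for breakdown, and 39 genes of this route were compared between the tibialis anterior (TA) muscle of wild-type mice and that of mice without *Mybpc2*. The genes were taken as a list of symbols by function, drawn up with earlier results of these data known, and all 39 were among the 12239 genes of the deposited expression table. By role, 14 act in starting and building the autophagosome, 12 in attaching proteins of the LC3 and GABARAP family to its membrane, 5 in picking the cargo and 8 in the lysosome or its control. The TA, a muscle of the shin made up mainly of fast-twitch fibres, came from male mice on the FVBN background, aged 5 to 6 months by the labels. For the young TA samples the study's methods give 3 to 6 months and a figure legend 3 to 5 months. WT libraries (n = 4) came from animals with the intact gene. C2-/- libraries (n = 3) came from animals in which a neomycin-resistance cassette between LoxP sites stands in place of much of *Mybpc2*, which encodes fMyBP-C, the myosin-binding protein of fast fibres. Neither the labels nor the study's methods name a Cre driver for this allele or any treatment of the animals, and the libraries hold whole muscle rather than isolated fibres. The values are levels of messenger RNA, and neither protein nor the rate of autophagy was measured in these libraries.

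Autophagy begins when the ULK1 kinase complex and a lipid kinase complex around VPS34 mark a site on a membrane, from which a cup-shaped sheet grows with lipid carried in by ATG9 and ATG2 proteins. A conjugation system resembling that of ubiquitin then links LC3 and GABARAP proteins to the sheet, and receptors such as p62 tie the cargo to them. The closed autophagosome fuses with a lysosome, where cathepsins digest the content. Skeletal muscle relies on this route to clear damaged mitochondria and proteins, and the transcription factors TFEB and TFE3 raise many of its genes by binding the letters CACGTG in their promoters.

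Each value below is a log2 CPM, the log2 of a gene's reads per 1e6 reads of a library after TMM scaling. A gene was counted as higher or lower in C2-/- when limma gave an adjusted p under 0.05 with a fold change above 1.5, and changes are C2-/- minus WT on the log2 scale with the standard error (SE) of that fit. The libraries held between 2613277 and 15464499 reads in the table, and the 3 deepest were all WT, so that WT replicate 4 (4683853 reads) was the only WT library near the depth of the C2-/- libraries. *Mybpc2* stood at 12.41 to 12.85 in WT and at -0.47 to 1.67 in C2-/-, where 3 to 8 reads were left, as the genotypes on the labels require. The whole table changed widely, with 45.2% of the 12239 genes past the threshold (20.2% higher and 25.0% lower). The median level over all genes was 3.96 to 4.02 in WT and 3.80 to 3.87 in C2-/-, and the median change over all genes was -0.14. Markers of fast fibres identified the tissue, with a summed level of 199300 to 233100 CPM in WT and 103700 to 126000 CPM in C2-/- (0 of 10 higher, 6 lower). The 6 slow-fibre markers in the table summed to 77.1 to 136 CPM in WT and 80.2 to 102 in C2-/- (0 past the threshold), and 1 of them, *Myh7*, had 0 reads in WT replicate 4 and in all C2-/- libraries. Of the other cell types a whole muscle holds, all 5 fibroblast markers were higher (453 to 774 CPM summed in WT, 1514 to 1864 in C2-/-). The 10 macrophage markers summed to 63.5 to 87.6 CPM in WT and 70.4 to 114 in C2-/- (2 higher, 2 lower), and 1 of 5 endothelial and 0 of 2 adipocyte markers were higher. These marker levels and counts are as deposited, and the counts after a correction for base composition are given below. The part of these cell types in the changes below was not tested, and in whole muscle fewer cells of a type and less RNA per cell cannot be told apart.

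More of the autophagy and lysosome genes were lower in C2-/- than higher. Of the 39, 17 were lower, 6 were higher and 16 did not pass, so that 59.0% were past the threshold against 45.2% of all genes. The lower share was 43.6% against 25.0%, and the higher share 15.4% against 20.2%. Their median change was -0.39, from -3.19 for *Tfe3* to 2.02 for *Rb1cc1*. The C2-/- libraries all lay outside the WT range for 27 of the 39 (9 above, 18 below), against 49.3% of all genes (22.6% above, 26.7% below). Without the fold minimum, 26 of the 39 passed, against 46.6% of all genes (21.2% higher, 25.5% lower). The receptors *Nbr1* and *Bnip3* and the kinase gene *Ulk2* made up the difference.

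**Figure D1:**
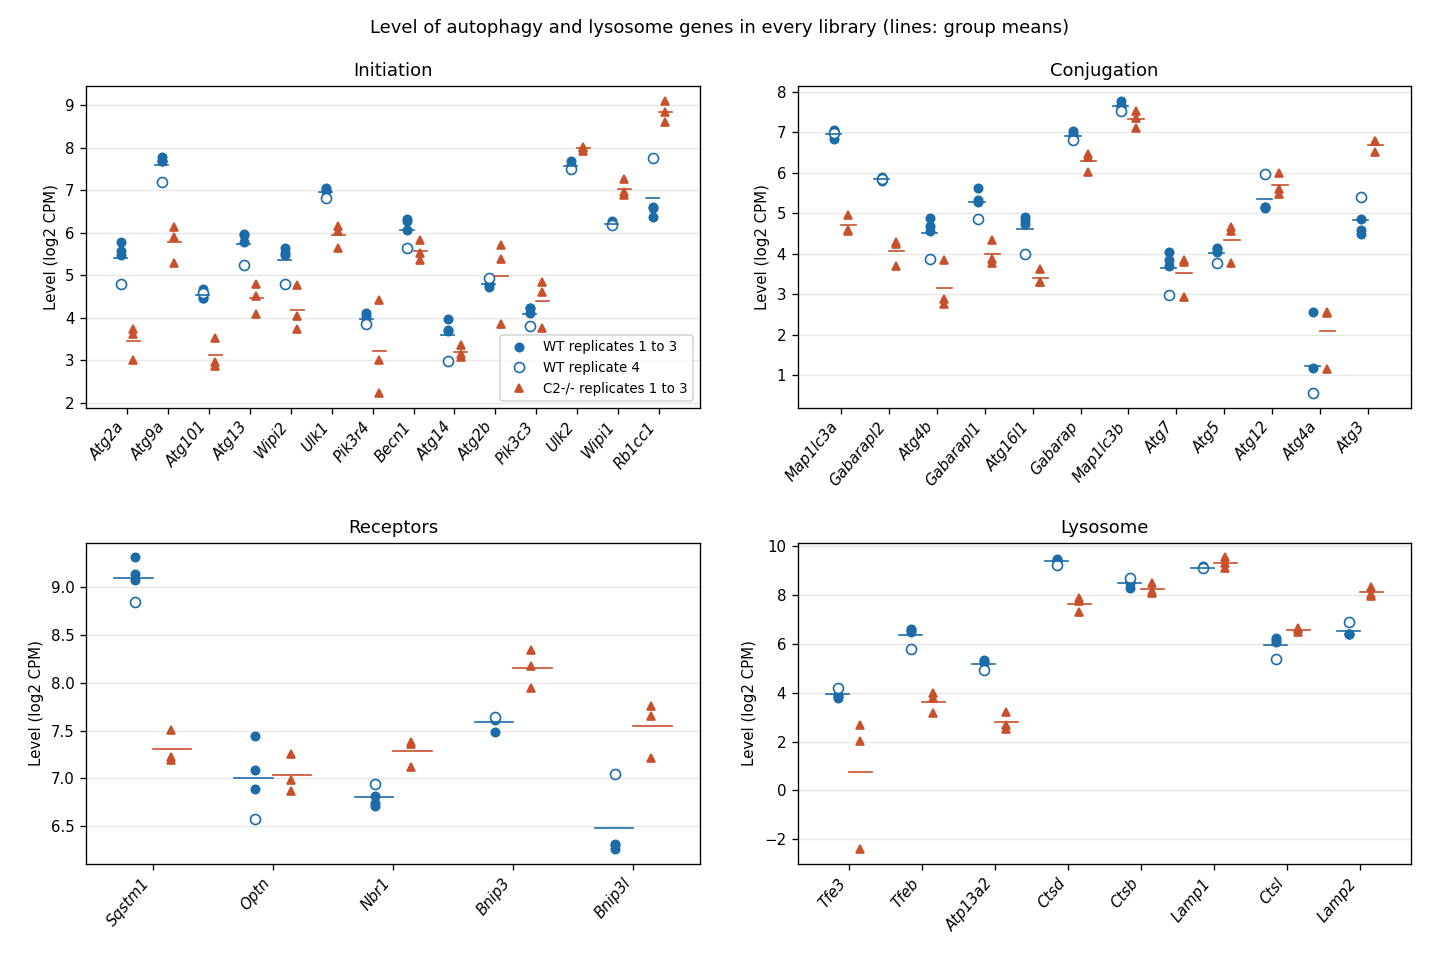
Level of each of the 39 genes in every library (y axis, log2 CPM), in 4 panels by role, with genes ordered by their change. Filled circles are WT replicates 1 to 3, open circles WT replicate 4, triangles the 3 C2-/- replicates, and lines the group means. *Map1lc3a*, *Sqstm1*, *Tfeb* and *Ctsd* show C2-/- libraries well below all WT libraries, and *Rb1cc1*, *Atg3* and *Lamp2* show them above.

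The direction of the change followed the base composition of the transcript. Genes with a low share of G and C bases (GC content) tended to be higher in C2-/- and genes with a high share lower, across the whole table (Spearman's rho = -0.683 over 12171 genes, which share the same 7 libraries) and among the 39 (rho = -0.839). Of the 16 members below the 50.2% median GC content of all genes, 5 were higher and 1 was lower. The 23 at or above it had 1 higher and 16 lower. When the dependence on GC content was removed from each library (GC correction), 10 of the 39 passed, 5 in each direction, against 20.6% of all genes (12.3% higher, 8.34% lower), and the median change of the 39 was -0.21. Higher under both were *Rb1cc1*, *Wipi1* and *Atg3*. Lower under both were *Atg9a*, *Gabarapl2*, *Sqstm1* and *Tfeb*. Of the 10 fast-fibre markers, 1 was higher and 2 were lower after the correction, and their median change was 0.05, against -0.97 as deposited. Of the other markers, 3 of 5 fibroblast, 1 of 10 macrophage, 1 of 6 slow-fibre, 0 of 5 endothelial and 1 of 2 adipocyte markers were then higher, and 0 were lower. In the comparison of WT replicate 4 alone with the 3 C2-/- libraries, which sets aside the 3 deep libraries and assumes that the lone WT library varies like the C2-/- libraries, 9 of the 39 passed (4 higher, 5 lower), against 4.53% of all genes (2.56% higher, 1.97% lower). The other 14 of the 23 genes past the threshold with 7 libraries did not pass there. This comparison uses the same C2-/- libraries, so it is not independent of the one with 7.

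**Figure D2:**
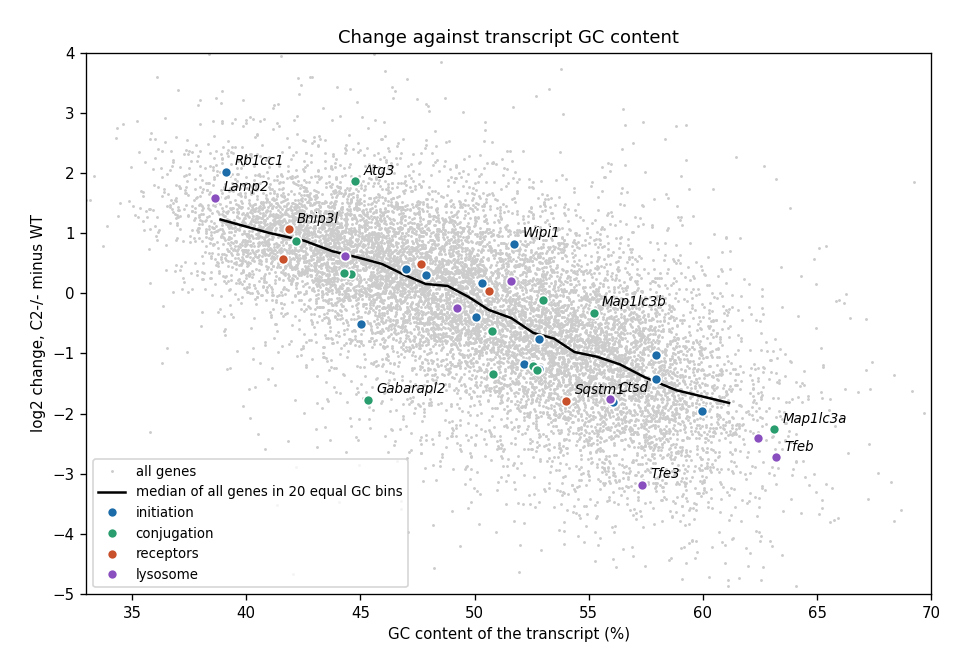
Change of each gene (y axis, log2, C2-/- minus WT) against the GC content of its longest protein-coding transcript (x axis, percent). Grey points are all genes within the plotted range, the line is their median in bins of equal size, and coloured points are the 39 genes by role. *Rb1cc1* (39.1% GC) and *Tfeb* (63.2% GC) lie at the 2 ends of the slope, while *Gabarapl2*, *Atg3* and *Wipi1* lie away from the line.

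The genes that start the autophagosome did not change as 1 group. Of the 14, 6 were lower, 2 higher and 6 did not pass (57.1% past the threshold, 42.9% lower, against 45.2% and 25.0% of all genes). Of the 5 that encode the ULK kinases and their partners, 3 were lower and the scaffold *Rb1cc1* was higher. None of the 4 genes of the VPS34 complex passed.

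*Rb1cc1* encodes FIP200, the large scaffold on which the ULK complex assembles, and lies at chr1:6206197-6276648 (GRCm38, plus strand). Its level was 6.59, 6.60, 6.36 and 7.75 in WT replicates 1 to 4 and 8.60, 9.10 and 8.83 in C2-/- replicates 1 to 3. All C2-/- libraries lay above all WT libraries, and WT replicate 4 lay between the other WT libraries and the C2-/- group. The change of 2.02 ± 0.30 (SE, 4.06 times the WT level, adjusted p = 0.00096) was 0.84 after GC correction and 1.09 against WT replicate 4 alone, past the threshold in both. Of its 50-base stretches, 12.0% are shared with other annotated genes, among them 4732440D04Rik on the opposite strand. *Ulk1*, the kinase of the complex, went the other way, with levels of 7.06, 6.97, 7.02 and 6.82 in WT and 6.04, 5.63 and 6.17 in C2-/-. No library of one group reached the range of the other, and the change was -1.02 ± 0.18 (adjusted p = 0.00175). After GC correction *Ulk1* stood at +0.43 and did not pass, so that its direction depends on the correction. Its close relative *Ulk2* had the highest mean log2 CPM of the 14 over all 7 libraries, though *Atg9a* was level with it in WT and *Rb1cc1* above it in C2-/-. It stood at 7.50, 7.70, 7.60 and 7.50 in WT and 7.93, 8.0 and 8.03 in C2-/-. The C2-/- libraries lay above the WT libraries, and the change of 0.41 ± 0.14 had an adjusted p of 0.0337 but a fold below 1.5. Within a library, *Ulk1* minus *Ulk2* was -0.61 ± 0.13 in WT and -2.04 ± 0.29 in C2-/- (SD), a difference of -1.43 that was 0.30 after GC correction.

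The regulatory partners of the kinase were lower. *Atg13*, which links ULK1 to FIP200, stood at 5.95, 5.96, 5.77 and 5.24 in WT and 4.52, 4.80 and 4.09 in C2-/- (-1.26 ± 0.25, adjusted p = 0.00331). *Atg101*, the partner that stabilises ATG13, stood at 4.46, 4.46, 4.67 and 4.57 in WT and 2.95, 2.87 and 3.52 in C2-/- (-1.42 ± 0.26, adjusted p = 0.00235). For both genes every C2-/- library lay below every WT library. After GC correction neither passed, at -0.60 for *Atg13* and 0.02 for *Atg101*.

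The 4 genes of the VPS34 complex did not pass. *Becn1*, the core subunit Beclin 1, had the lowest adjusted p of the 4, with 6.31, 6.28, 6.07 and 5.64 in WT and 5.52, 5.36 and 5.84 in C2-/- (-0.50 ± 0.22, adjusted p = 0.0806). WT replicate 4 lay within the C2-/- range, and without it the change was -0.65 and passed. After GC correction the change was -1.02 and past the threshold, whereas correction by the median GC content over its transcripts gave -0.35, not past it. Without strand in counting, 45.7% of its 50-base stretches are shared with other annotated genes, among them the overlapping *Cntd1*. *Pik3c3*, the lipid kinase VPS34 itself, had a change of 0.31 ± 0.30, its regulatory subunit *Pik3r4* one of -0.76 ± 0.45 and the autophagy-specific subunit *Atg14* one of -0.39 ± 0.32, each with adjusted p above the threshold (0.413, 0.186 and 0.333) and overlapping groups. Without C2-/- replicate 3, *Pik3r4* was at -1.36 and passed as lower. Leaving out 1 library at a time gave 0.09 to 0.62 for *Pik3c3*, which passed in none of these fits.

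Of the genes that bring membrane, *Atg9a* and *Atg2a* were lower and *Atg2b* did not pass. *Atg9a*, the scramblase on vesicles that seed the autophagosome, stood at 7.70, 7.67, 7.77 and 7.19 in WT and 6.14, 5.28 and 5.89 in C2-/-. The groups did not overlap, and the change of -1.81 ± 0.23 (adjusted p = 0.000503) was -0.63 after GC correction and -1.42 against WT replicate 4 alone, past the threshold each time. With the median GC content over its transcripts, however, it was -0.39 and did not pass, and 42.6% of its stretches are shared with other annotated genes, among them the overlapping *Gm29253*. *Atg2a*, which transfers lipid into the growing sheet, stood at 5.48, 5.56, 5.79 and 4.80 in WT and 3.61, 3.73 and 2.99 in C2-/- (-1.96 ± 0.30, adjusted p = 0.000979). All C2-/- libraries lay below WT, but the change was -0.28 after GC correction and -1.36 against WT replicate 4 alone, and passed in neither. Its relative *Atg2b* had a change of 0.18 ± 0.38 (adjusted p = 0.721), with C2-/- libraries at 5.39, 5.71 and 3.85 on both sides of the WT range. Without C2-/- replicate 3, the lowest of these libraries, *Atg2b* was at 0.745 and passed as higher.

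*Wipi1* and *Wipi2* encode proteins that bind the lipid that VPS34 makes. These genes changed in opposite directions. *Wipi1* stood at 6.20, 6.28, 6.19 and 6.17 in WT and 6.88, 7.26 and 6.96 in C2-/- (0.83 ± 0.16, adjusted p = 0.00266). *Wipi2* stood at 5.64, 5.53, 5.47 and 4.79 in WT and 4.03, 3.73 and 4.78 in C2-/- (-1.18 ± 0.30, adjusted p = 0.011). C2-/- libraries lay above all WT libraries for *Wipi1* and below all of them for *Wipi2*. The 2 transcripts have nearly the same GC content (51.7% and 52.2%), and after GC correction *Wipi1* was at 1.29, past the threshold, and *Wipi2* at -0.64, not past it. Against WT replicate 4 alone *Wipi1* was at 0.86 (adjusted p = 0.118) and *Wipi2* at -0.61 (adjusted p = 0.568), and neither passed. Within a library, *Wipi1* minus *Wipi2* was 0.85 ± 0.36 in WT and 2.86 ± 0.67 in C2-/- (SD), a difference between the groups of 2.00 that was 1.93 after GC correction.

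**Figure D3:**
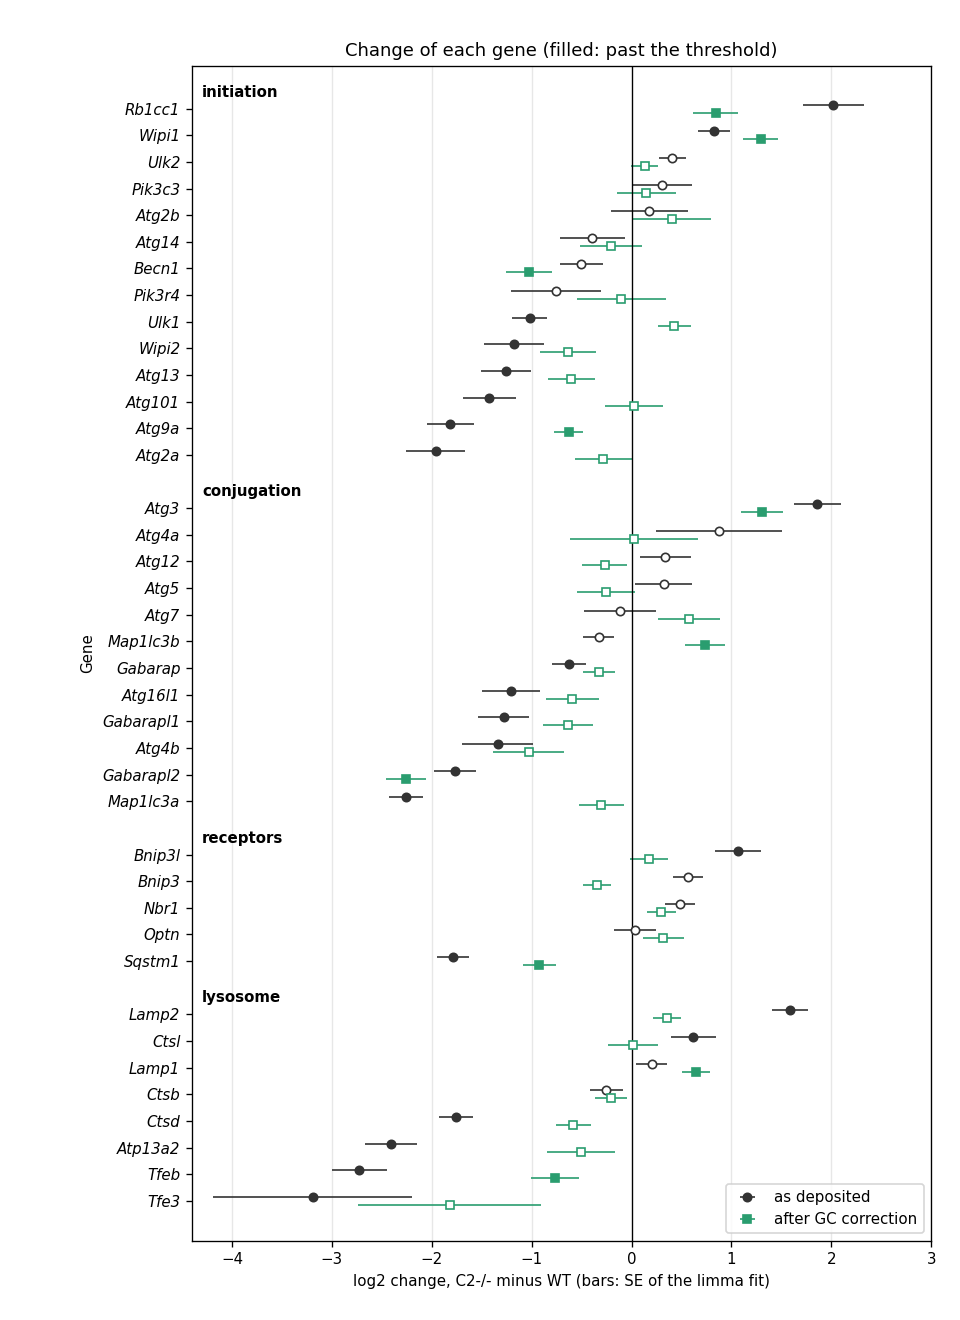
Change of each of the 39 genes (x axis, log2, C2-/- minus WT, bars are the SE of the limma fit) by role. Circles show the values as deposited and squares those after GC correction, and filled symbols passed the threshold. *Rb1cc1*, *Map1lc3a*, *Lamp2* and *Tfeb* lay closer to 0 after the correction, while *Gabarapl2* and *Wipi1* lay farther from it.

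Conjugation genes were mostly lower or did not pass. Of the 12, 6 were lower, only *Atg3* was higher with the 7 libraries and deposited values, and 5 did not pass (58.3% past the threshold, 50% lower, against 45.2% and 25.0% of all genes). The ATG12 and ATG5 genes and the activating enzyme *Atg7* were among those that did not, while 4 of the 5 genes for the proteins that become attached were lower. After GC correction 2 of the 12 were higher and 1 was lower (25.0% past the threshold, against 20.6% of all genes).

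*Atg3* encodes the enzyme that hands LC3 and GABARAP proteins to the membrane lipid, and lies at chr16:45158785-45188538 (GRCm38, plus strand). It stood at 4.48, 4.87, 4.58 and 5.39 in WT and 6.79, 6.78 and 6.50 in C2-/-. Every C2-/- library lay above every WT library, with WT replicate 4 the highest of its group. The change of 1.86 ± 0.24 (3.63 times the WT level, adjusted p = 0.000514) was 1.31 after GC correction and 1.30 against WT replicate 4 alone, and it passed in both. None of its 50-base stretches is shared with another annotated gene.

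The other enzymes and scaffolds of conjugation were lower or did not pass. *Atg7*, which activates both the ATG12 and the LC3 branch, had a change of -0.11 ± 0.36 (adjusted p = 0.813), at 3.85, 4.05, 3.68 and 2.97 in WT and 3.84, 2.94 and 3.80 in C2-/-. *Atg5* and *Atg12*, which are joined to each other, had changes of 0.32 ± 0.28 and 0.34 ± 0.25 (adjusted p = 0.367 and 0.285). For these 3 genes the groups overlapped. *Atg16l1*, which holds the ATG12-ATG5 pair at the membrane, was lower, at 4.84, 4.73, 4.90 and 3.98 in WT and 3.29, 3.31 and 3.62 in C2-/- (-1.20 ± 0.29, adjusted p = 0.00784). *Atg4b*, the protease that trims LC3 before it is attached, was lower too, at 4.55, 4.68, 4.89 and 3.88 in WT and 2.89, 3.85 and 2.75 in C2-/- (-1.34 ± 0.36, adjusted p = 0.0125). The groups did not overlap for *Atg16l1* or *Atg4b*, and neither passed after GC correction (-0.59 and -1.03) or against WT replicate 4 alone (-0.57 and -0.71). With the median GC content over transcripts *Atg4b* was at -1.21 and passed. *Atg4a*, a related protease, had 6 to 88 reads per library and a change of 0.87 ± 0.63 (adjusted p = 0.274). Most of its sequence (63.6% of stretches) is shared with other annotated genes, among them its pseudogene *Atg4a-ps*.

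Among the LC3 and GABARAP genes, whose products coat the autophagosome and hold its cargo receptors, the largest fall was that of *Map1lc3a*. This gene lies at chr2:155276297-155278073 (GRCm38, plus strand). It stood at 7.01, 7.05, 6.83 and 6.99 in WT and 4.96, 4.59 and 4.57 in C2-/-. The WT libraries, the shallow one included, lay close together and far above all C2-/- libraries. The change was -2.26 ± 0.17 (0.209 times the WT level, adjusted p = 0.000162) and -2.28 against WT replicate 4 alone, past the threshold in both. Its transcript has 63.1% GC, near the top of the 39, and after GC correction the change was -0.30 and did not pass. *Map1lc3b*, whose log2 CPM, not divided by length, was the highest of the conjugation genes, stood at 7.69, 7.63, 7.78 and 7.54 in WT and 7.11, 7.37 and 7.52 in C2-/-, which was below WT in every library without passing (-0.33 ± 0.16, adjusted p = 0.107). Its direction turned under GC correction, to 0.73, past the threshold, and with the median GC content over transcripts it was 0.51 and did not pass.

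*Gabarapl2* was lower although its transcript is poor in G and C bases. It stood at 5.89, 5.79, 5.81 and 5.85 in WT and 4.23, 3.69 and 4.29 in C2-/-, and the change of -1.77 ± 0.21 (adjusted p = 0.000378) was -2.26 after GC correction (adjusted p = 0.000485). Against WT replicate 4 alone it was -1.78 and did not pass (adjusted p = 0.0514). The WT libraries lay close together and above all C2-/- libraries. With 45.3% GC it was the only lower gene among the 16 with the lower GC content. Of its stretches, 17.0% are shared with pseudogenes. *Gabarap* stood at 6.95, 7.04, 6.89 and 6.81 in WT and 6.40, 6.46 and 6.02 in C2-/- (-0.63 ± 0.17, adjusted p = 0.0124). *Gabarapl1* stood at 5.63, 5.32, 5.28 and 4.86 in WT and 3.87, 4.35 and 3.76 in C2-/- (-1.28 ± 0.25, adjusted p = 0.00323). Neither gene had overlapping groups, and neither passed after GC correction (-0.32 and -0.64). Of the stretches of *Gabarapl1*, 18.6% are shared with 1700101I11Rik on the opposite strand. The change of *Gabarap* lay just past the fold minimum, and without C2-/- replicate 3 it was -0.49 and did not pass.

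Per kilobase of transcript, which allows levels of different genes to be added, the 5 genes summed to 348, 347, 328 and 318 CPM per kb in WT replicates 1 to 4 and to 162, 169 and 158 in C2-/- replicates 1 to 3. The C2-/- sum was thus 163 ± 5.09 against 335 ± 14.7 (SD) in WT. The make-up of the sum differed as well. *Map1lc3a* gave 33.6% ± 1.99 of it in WT and 14.5% ± 2.38 in C2-/-, whereas *Map1lc3b* gave 23.0% ± 1.66 and 37.9% ± 5.90. *Gabarap* gave 26.8% ± 0.94 in WT and 35.9% ± 4.75 in C2-/-, and *Gabarapl2* gave 10.2% ± 0.53 and 6.28% ± 1.5. For these 4 the shares in C2-/- lay outside those in WT in every library. *Gabarapl1* gave 6.42% ± 1.16 in WT and 5.44% ± 1.06 in C2-/-, with overlapping groups. These sums use the deposited values, in which GC content was not corrected. Sums and shares also depend on the length used, that of the longest protein-coding transcript. For *Map1lc3b* it was 2633 bases, against a median of 1653.5 over its transcripts. For *Gabarapl1* it was 1820 against 720.5 and for *Gabarap* 1351 against 1050.5, while for *Map1lc3a* and *Gabarapl2* both lengths were the same.

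**Figure D4:**
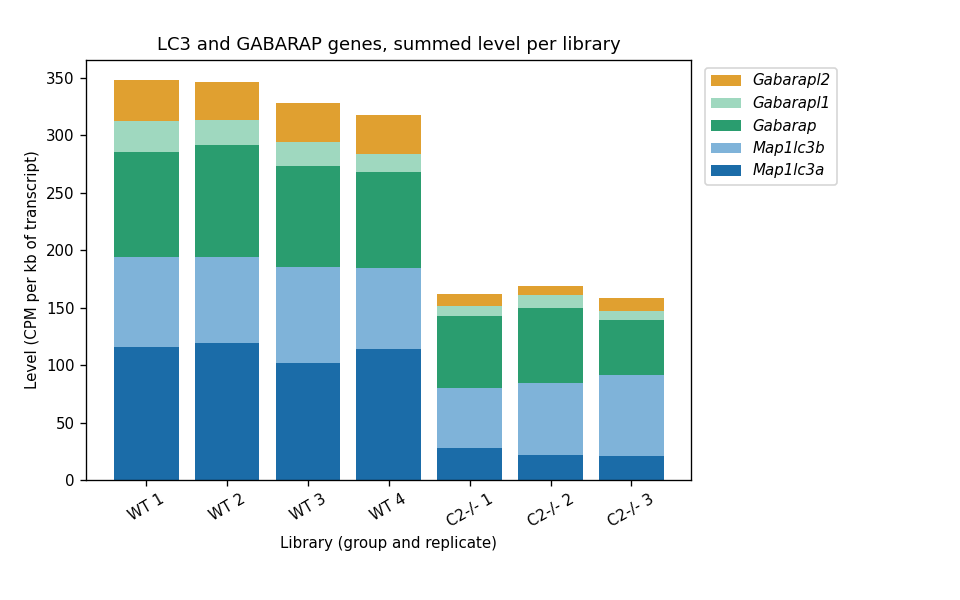
Summed level of the 5 LC3 and GABARAP genes (y axis, CPM per kb of transcript) in each library (x axis), stacked by gene. The 4 WT bars stand at 318 to 348 and the 3 C2-/- bars at 158 to 169, and the *Map1lc3a* part is the one that shrinks most.

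Of the 5 cargo receptors 40% were past the threshold, a share near the 45.2% of all genes. *Sqstm1* was lower, *Bnip3l* was higher, and *Nbr1*, *Optn* and *Bnip3* did not pass.

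*Sqstm1* encodes p62, which binds ubiquitin-marked cargo and LC3, and lies at chr11:50199366-50210827 (GRCm38, minus strand). It was the most abundant receptor gene in WT, at 9.14, 9.32, 9.08 and 8.85, and stood at 7.23, 7.19 and 7.51 in C2-/-. Even the lowest WT library, replicate 4, lay far above the highest C2-/- library. The change of -1.79 ± 0.16 (adjusted p = 0.000216) was -0.93 after GC correction and -1.54 against WT replicate 4 alone, past the threshold in both. An overlap with *Mrnip* on the opposite strand covers 20.4% of its stretches. *Nbr1*, a receptor with the same kind of ubiquitin-binding and LC3-binding parts, was at 6.71, 6.82, 6.74 and 6.95 in WT and 7.12, 7.36 and 7.38 in C2-/-. Its C2-/- libraries lay above WT, and the change of 0.49 ± 0.15 (adjusted p = 0.0244) was below the fold minimum. Within a library, *Sqstm1* minus *Nbr1* was 2.29 ± 0.27 in WT and 0.02 ± 0.16 in C2-/- (SD), a difference of -2.27 that was -1.22 after GC correction. *Optn*, the receptor optineurin, was at 7.09, 7.44, 6.89 and 6.57 in WT and 6.99, 7.25 and 6.87 in C2-/-, with a change of 0.04 ± 0.21 (adjusted p = 0.902).

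*Bnip3l* and *Bnip3* encode receptors in the outer membrane of mitochondria. *Bnip3l* stood at 6.30, 6.32, 6.26 and 7.05 in WT and 7.76, 7.66 and 7.22 in C2-/- (1.06 ± 0.23, adjusted p = 0.00485). *Bnip3* stood at 7.62, 7.61, 7.49 and 7.65 in WT and 7.95, 8.18 and 8.34 in C2-/- (0.56 ± 0.15, adjusted p = 0.0124). Both had every C2-/- library above every WT library, and *Bnip3* was under the fold minimum with all 7 libraries and the deposited values. Without C2-/- replicate 1 *Bnip3* was at 0.67 and passed, as it did with median centring (0.72). WT replicate 4 lay apart from the other WT libraries for *Bnip3l*, and against it alone the change was 0.49 and did not pass. After GC correction *Bnip3l* was at 0.18 and *Bnip3* at -0.35, neither past the threshold. Of the stretches of *Bnip3*, 62.4% are shared with other annotated genes, and of those of *Bnip3l* 23.4% with its pseudogene.

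The falls of *Tfe3*, *Tfeb* and *Atp13a2* were the largest of the 39 with all 7 libraries, but that of *Tfe3* was -1.60 without the 1 library in which it had 0 reads. Of the 8, 4 were lower, 2 were higher and 2 did not pass (75.0% past the threshold, 50% lower and 25.0% higher, against 45.2%, 25.0% and 20.2% of all genes). The transcription factors *Tfeb* and *Tfe3*, the protease *Ctsd* and the membrane pump *Atp13a2* were lower, *Lamp2* and *Ctsl* were higher, and *Lamp1* and *Ctsb* did not pass.

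*Tfeb*, the main activator of lysosomal genes, lies at chr17:47737030-47792419 (GRCm38, plus strand). It stood at 6.56, 6.47, 6.62 and 5.79 in WT and 3.97, 3.77 and 3.17 in C2-/-. In reads, the level was 243 to 1515 per WT library and 36 to 45 per C2-/- library. All C2-/- libraries lay below the lowest WT library, which was replicate 4. The change of -2.72 ± 0.27 (0.151 times the WT level, adjusted p = 0.000251) was -0.76 after GC correction (adjusted p = 0.047) and -2.15 against WT replicate 4 alone, past the threshold in both. *Tfe3*, a related factor that binds the same letters, stood at 3.79, 3.87, 3.92 and 4.20 in WT and 2.67, -2.42 and 2.01 in C2-/-. C2-/- replicate 2 had 0 reads and the others 18 and 19, so that the change of -3.19 ± 0.995 (adjusted p = 0.0247) depends on the 0.5 reads added before the log. Without C2-/- replicate 2 it was -1.60 and past the threshold. Without WT replicate 4 it was -3.11 and did not pass, nor did it after GC correction (-1.82). Against WT replicate 4 alone, the highest WT library for this gene, the change was -3.44.

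*Ctsd*, the aspartic protease cathepsin D, had the highest level per kilobase of the 39 in WT and lies at chr7:142375911-142388038 (GRCm38, minus strand). It stood at 9.42, 9.48, 9.41 and 9.23 in WT and 7.86, 7.74 and 7.29 in C2-/-. The groups were far apart, and the change was -1.75 ± 0.17 (adjusted p = 0.000231) and -1.60 against WT replicate 4 alone, past the threshold in both. After GC correction it was -0.58, with an adjusted p of 0.043 and a fold just short of the minimum, and with the median GC content over transcripts it was -0.77 and passed. Of its stretches, 36.6% are shared with the overlapping *Gm49369*. The genes of 2 cysteine proteases were not lower. *Ctsb*, cathepsin B, was at 8.47, 8.28, 8.56 and 8.68 in WT and 8.49, 8.17 and 8.08 in C2-/- (-0.25 ± 0.16, adjusted p = 0.228), with overlapping groups. *Ctsl*, cathepsin L, was at 6.22, 6.08, 6.15 and 5.37 in WT and 6.47, 6.64 and 6.62 in C2-/- (0.62 ± 0.22, adjusted p = 0.0425). Its C2-/- libraries lay above WT, but it fell short of the threshold when any library but WT replicate 1 was left out, with changes of 0.42 to 0.71 over all 7 such fits, and after GC correction (0.02). Of its stretches, 28.1% are shared with other annotated genes, among them the overlapping pseudogene Gm49230. Against WT replicate 4 alone, the lowest WT library for this gene, the change was 1.21 and passed. Within a library, *Ctsd* minus *Ctsb* was 0.89 ± 0.27 in WT and -0.61 ± 0.18 in C2-/- (SD), a difference of -1.50 that was -0.38 after GC correction.

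*Atp13a2*, a polyamine pump of the lysosomal membrane, stood at 5.23, 5.34, 5.28 and 4.91 in WT and 2.51, 3.20 and 2.66 in C2-/-. Every C2-/- library, with 16 to 30 reads, lay below every WT library, with 132 to 606 reads. The change was -2.41 ± 0.26 (adjusted p = 0.000301). Its transcript has 62.4% GC, and the change was -0.50 after GC correction and -2.13 against WT replicate 4 alone, passing in neither. *Lamp1* and *Lamp2* encode the main proteins of the lysosomal membrane. *Lamp2*, which lies at chrX:38401357-38456454 (GRCm38, minus strand), stood at 6.40, 6.39, 6.41 and 6.91 in WT and 7.96, 8.34 and 8.04 in C2-/-. All C2-/- libraries lay above all WT libraries, and the change was 1.59 ± 0.18 (adjusted p = 0.000347) and 1.21 against WT replicate 4 alone, past the threshold in both. At 38.7% its GC content was the lowest of the 39, and after GC correction the change was 0.36 and did not pass. *Lamp1*, with the highest mean log2 CPM of the 8 over all 7 libraries but below *Ctsd* in WT, stood at 9.17, 9.14, 9.09 and 9.10 in WT and 9.55, 9.31 and 9.12 in C2-/- (0.20 ± 0.15, adjusted p = 0.296), which did not pass with the deposited values and did after GC correction (0.64), though not with the median GC content over transcripts (0.52). Within a library, *Lamp1* minus *Lamp2* was 2.60 ± 0.27 in WT and 1.21 ± 0.33 in C2-/- (SD), a difference of -1.39 that was 0.28 after GC correction.

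Promoters were searched for the letters that TFEB and TFE3 bind. The RNA of both factors was lower with the deposited values, for *Tfe3* with only 0 to 19 reads per C2-/- library. Whether either factor had a part in the changes was not tested. RefSeq promoters (GRCm38.p6, 250 bases before to 50 after a start) were found for 31 of the 39 genes, 36 promoters in all. CACGTG, which reads the same on both strands, was in 8 of the 36 (22.2%) and in 7.15% of all 32851 promoters. By gene, it was in 8 of the 31 and in 22 of 92 other autophagy and lysosome genes, from the wider list described below. The 8 belonged to *Atg3*, *Atg5*, *Atg7*, *Atg14*, *Bnip3*, *Ctsd*, *Ctsl* and *Lamp1*, of which 2 were higher, 1 was lower and 5 did not pass, where 20.2% of all genes were higher and 25.0% lower. The longer form TCACGTGA, which contains CACGTG, was in those of *Atg3* and *Ctsd* (5.56%, against 0.974% of all). By gene, it was in 2 of the 31 and in 11 of the 92 other genes. TGTTTAC, the core bound by FOXO factors, searched on both strands, was in 0 of the 36 and in 3.65% of all. A match is a description of letters and not a binding site. The 250 bases before the start are shown for *Ctsd*, which was lower, *Atg3*, which was higher, and *Lamp1*, which held the letters 4 times and did not pass. Capitals mark every CACGTG, and the regions are chr7:142387828-142388077 (minus strand), chr16:45158579-45158828 (plus strand) and chr8:13158911-13159160 (plus strand).
*Ctsd*: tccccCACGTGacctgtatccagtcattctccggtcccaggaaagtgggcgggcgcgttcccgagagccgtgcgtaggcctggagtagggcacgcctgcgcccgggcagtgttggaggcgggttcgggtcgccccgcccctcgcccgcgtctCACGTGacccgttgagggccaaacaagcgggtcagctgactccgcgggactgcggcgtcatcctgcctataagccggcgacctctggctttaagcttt
*Atg3*: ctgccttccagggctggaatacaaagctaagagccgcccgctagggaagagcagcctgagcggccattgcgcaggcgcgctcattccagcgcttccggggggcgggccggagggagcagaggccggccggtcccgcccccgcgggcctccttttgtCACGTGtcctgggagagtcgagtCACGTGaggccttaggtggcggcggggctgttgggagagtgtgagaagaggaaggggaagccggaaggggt
*Lamp1*: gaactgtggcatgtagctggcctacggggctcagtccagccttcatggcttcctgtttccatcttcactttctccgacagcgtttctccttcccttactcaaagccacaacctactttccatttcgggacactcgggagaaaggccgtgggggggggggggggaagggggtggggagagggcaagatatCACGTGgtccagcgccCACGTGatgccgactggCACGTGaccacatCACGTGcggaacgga
These starts are those of RefSeq, and in *Ctsd* and *Atg3* they lie inside the GENCODE gene whose coordinates are given above, so that part of the 250 bases falls within that gene. The first letter of the copies lies 245 and 98 bases before the start in *Ctsd*, 94 and 71 in *Atg3*, and 61, 45, 28 and 15 in *Lamp1*. Of the 2 genes with the longer form, *Ctsd* fell by 1.75 on the log2 scale and *Atg3* rose by 1.86. Whether the letters go with the direction of a change was not tested.

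The wider pathway was read from 117 other genes listed by textbook role. Of these, 42 were lower, 22 higher and 53 did not pass (54.7% past the threshold, 35.9% lower and 18.8% higher, against 45.2%, 25.0% and 20.2% of all genes), with a median change of -0.45. After GC correction 28 passed, 13 higher and 15 lower (23.9%, against 20.6% of all genes). Of 16 subunits of the proton pump, which acidifies the lysosome, 8 were lower, 1 was higher and 7 did not pass. Of 13 fusion genes, 6 were lower and 2 higher, and of 22 genes of the lysosomal membrane and its signalling 8 were lower and 1 higher. The 35 hydrolases had 12 lower and 6 higher. Of 18 further machinery genes and regulators 7 were higher and 5 lower, and of 13 further cargo receptors 5 were higher and 3 lower. The share past the threshold was 56.2% for the proton pump, 61.5% for fusion, 40.9% for the membrane, 51.4% for the hydrolases, 66.7% for the machinery and 61.5% for the receptors, where all genes had 45.2%. After GC correction, where 12.3% of all genes were higher and 8.34% lower, the 13 receptors had 5 higher and 0 lower, the proton pump 0 and 3, the fusion genes 1 and 4, the membrane genes 1 and 3, the hydrolases 3 and 2 and the machinery 3 and 3.

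Of these genes, the largest rises and falls without overlap between the groups were the following. *Atg10*, which joins ATG12 to ATG5, was at 3.51, 3.83, 3.88 and 3.55 in WT and 5.40, 5.81 and 4.90 in C2-/- (1.68 ± 0.27, adjusted p = 0.00123). *Fam134b*, a receptor for the endoplasmic reticulum now named *Retreg1*, was at 7.56, 7.26, 7.42 and 7.72 in WT and 8.94, 9.01 and 9.45 in C2-/- (1.64 ± 0.18, adjusted p = 0.000302). *Arsb*, a lysosomal sulfatase, was at 2.82, 2.96, 2.71 and 2.07 in WT and 4.60, 4.55 and 3.67 in C2-/- (1.63 ± 0.36, adjusted p = 0.00538). All 3 were higher in each C2-/- library than in any WT library, and after GC correction *Fam134b* (1.13) and *Arsb* (1.94) passed while *Atg10* (0.62) did not. Against WT replicate 4 alone *Atg10* (1.82) and *Fam134b* (1.42) passed while *Arsb* (2.20) did not. *Atg16l2*, a relative of *Atg16l1*, was at 2.86, 2.44, 2.67 and 1.39 in WT and -2.54, 0.39 and 0.43 in C2-/- (-2.91 ± 0.79, adjusted p = 0.0134), with 0 to 6 reads in C2-/-. *Atg4d*, a protease of the ATG4 family, was at 5.71, 5.54, 5.78 and 4.33 in WT and 2.82, 2.63 and 3.20 in C2-/- (-2.46 ± 0.37, adjusted p = 0.000928). *Fkbp8*, a mitochondrial receptor that binds LC3, was at 6.43, 6.37, 6.52 and 5.67 in WT and 4.43, 3.31 and 4.02 in C2-/- (-2.33 ± 0.30, adjusted p = 0.000539). These 3 were lower in each C2-/- library than in any WT library, and after GC correction *Atg16l2* (-2.77) and *Atg4d* (-1.52) passed while *Fkbp8* (-0.38) did not. *Atg16l2* was at -1.93 without C2-/- replicate 1, in which it had 0 reads, and at -2.22 with the median GC content over transcripts, where it did not pass. Against WT replicate 4 alone these 3 were at -1.96, -1.45 and -1.75 and did not pass.

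**Figure D5:**
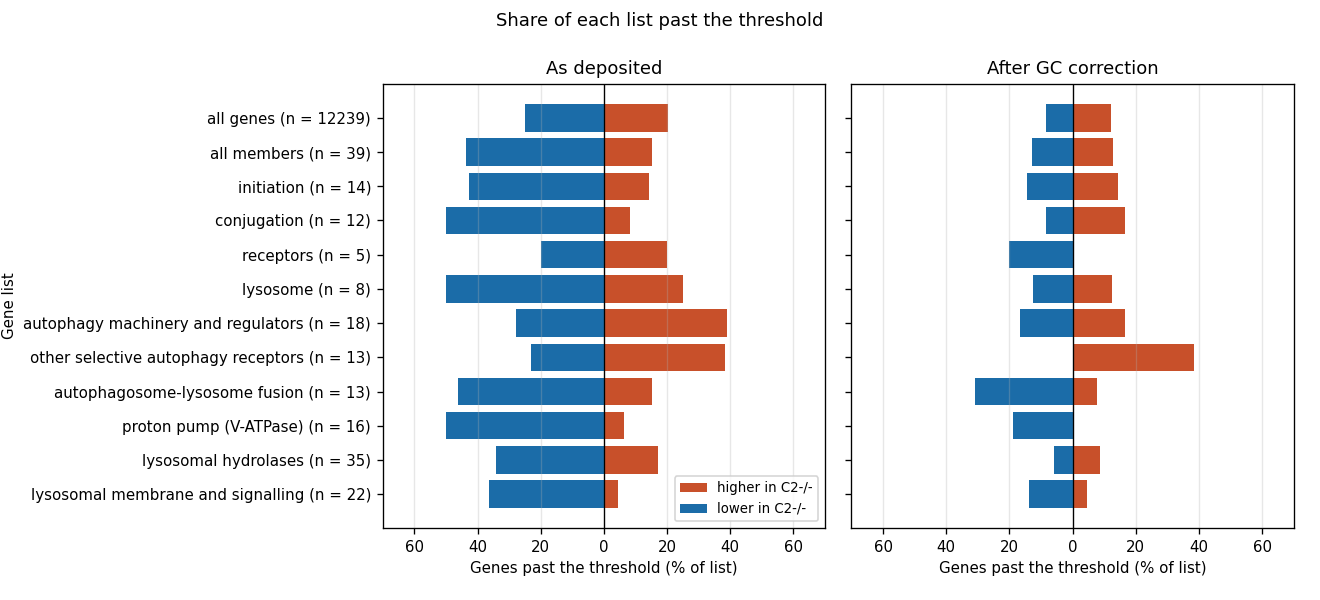
Share of each gene list past the threshold (x axis, percent of the list), to the right for higher and to the left for lower in C2-/-, for all genes (12239 as deposited, 12171 after GC correction), the 39 genes and their roles, and the other pathway lists. As deposited, the lower share exceeds the higher in most lists, while after GC correction the 39 stand at 5 genes in each direction.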

How the data were processed

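RNA of whole TA muscle from 4 WT and 3 C2-/- mice, selected on oligo(dT) beads, had been sequenced as DNA nanoballs (the series' design text names 4 per group, and the 3 C2-/- samples given were analysed here). Per the submitters' processing notes and the study's methods, the authors aligned the reads to GRCm38.p6 with HISAT, counted them per gene with featureCounts 1.5.2, scaled them by edgeR's TMM factors and deposited log2 values per library. Whether strand was used in counting, how reads with several alignments were treated and how 12239 genes were kept are not given in the sources used here. The deposited table of the authors' own comparison (log2 fold changes, p-values, adjusted p-values and scores) was not used.

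The log2 values equalled whole reads plus 0.5 per effective library size for 100% of the entries (to within 2.15e-08 reads), and reads were recovered from them. The floor of 3 reads was 0.195 to 1.12 CPM among the libraries, which covers counting error only.

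limma 3.58.1 (R 4.3.3) with a mean-variance trend was fitted to the deposited log2 values of all genes with genotype as the only term, two-sided, with Benjamini-Hochberg adjustment over 12239 genes. GC content and length came from the longest protein-coding transcript of GENCODE M21 (12171 genes matched, 353 by an older symbol), and the GC correction was a natural spline with 5 degrees of freedom in each library. Sharing of sequence was the percent of a gene's 50-base stretches found in another annotated gene. Alternatives were other scalings, a filter, another value before the log, voom on the recovered reads, a replicate block, each library left out, WT replicate 4 against C2-/-, no fold minimum and GC correction by the median over transcripts, the last chosen after seeing the data. Same-numbered samples came from no shared source in the labels.

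The members and all lists were chosen with earlier results of these data known. Values in every library are given for each member past the threshold, the most abundant gene of each role and the LC3 and GABARAP genes, and of the 117 other genes for the 3 largest rises and falls without overlap whose mean was at least 1 in the higher group (Atp6v0c was not analysed here; Rubcn and *Retreg1* were found under older symbols).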

Additional observations from a re-analysis of the deposited data

Results flagged for a closer look

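In the WT group of 4, 45 genes (the 39 and the 6 other pathway genes given with their values) were checked for a library whose gap to the nearest other, divided by the range of the group, exceeded Dixon's critical value for 4 values. In 7 genes a library did, against about 2.2 that this rule gives by chance, and in each it was WT replicate 4, the shallow WT library. It was the highest WT library for *Rb1cc1* (7.751, others 6.364 to 6.596), *Atg12* (5.97, others 5.134 to 5.166), *Bnip3l* (7.05, others 6.258 to 6.319) and *Lamp2* (6.907, others 6.39 to 6.411). It was the lowest for *Atg9a* (7.192, others 7.674 to 7.769), *Ctsl* (5.368, others 6.081 to 6.225) and *Atg4d* (4.332, others 5.542 to 5.779). For *Rb1cc1*, *Atg12*, *Bnip3l*, *Lamp2*, *Atg9a* and *Atg4d* it stood on the side of the C2-/- libraries. The 7 genes share the same library, so the 7 are not independent of each other.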

How the results depend on the processing

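Of the 39 genes, 5 had the same direction and the same side of the threshold under all 18 alternatives. Leaving out 1 library at a time gave 22 to 23 genes past the threshold (5 to 6 higher, 17 to 17 lower), a median change of -0.60 to -0.34, and 52 to 71 of the 117 other genes (18 to 25 higher, 34 to 48 lower). Of the 23 called genes, 20 kept direction and call in all 7 of these fits, and of the 16 others 12 stayed below the threshold. Past the threshold were 10 of the 39 with the GC correction (5 lower), 7 of them among the 23, with the one by the median over transcripts 8 (3 higher, 5 lower), and with WT replicate 4 against C2-/- 9 (5 lower). Of the 117 other genes these gave 28 (13 higher, 15 lower), 32 (17 lower) and 8 (5 higher, 3 lower). The median change of the 39 was -0.23 with median centring, -0.21 with the GC correction and -0.60 without WT replicate 4. Median centring also ended the call of *Gabarap* and put *Nbr1* and *Bnip3* past the threshold as higher.

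Same-numbered WT and C2-/- samples did not deviate together (r = -0.04, -0.02 and -0.05), so the numbers were taken to mark no pairs. The replicate block on replicates 1 to 3 gave 23 genes (5 higher, 18 lower) with a median change of -0.60 and 71 of the other genes, and the replicate block with the GC correction gave 12 (7 lower), a median change of -0.23 and 30 of the other genes (15 lower).

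Some directions turned. With the GC correction, the one by the median over transcripts and the replicate block with the GC correction, in that order, *Ulk1* was at 0.43, 0.55 and 0.49, *Atg5* at -0.25, -0.36 and -0.39, *Atg7* at 0.58, 0.63 and 0.42, *Atg12* at -0.27, -0.38 and -0.12, and *Map1lc3b* at 0.73, 0.51 and 0.78. The first and the last of these gave 0.0236 and 0.149 for *Atg101* and -0.35 and -0.41 for *Bnip3*. The correction by the median over transcripts gave -0.0284 for *Pik3c3* and -0.0759 for *Atg4a*, and the replicate block with the GC correction gave -0.26 for *Atg4a* and -0.23 for *Ctsl*. Against WT replicate 4 alone *Atg14* was at 0.22, *Atg7* at 0.55 and *Atg12* at -0.28. *Atg7* was at 0.0469 with median centring and 0.0888 with quantile normalization, which gave -0.14 for *Optn* and -0.14 for *Lamp1*. Without 1 library, *Atg7* was at 0.02 (WT replicate 2) and 0.18 (C2-/- replicate 2), *Atg2b* at -0.0246 (C2-/- replicate 1) and -0.185 (C2-/- replicate 2), against 0.745 at most (C2-/- replicate 3), and *Optn* at -0.00071 (WT replicate 3), -0.11 (WT replicate 4) and -0.07 (C2-/- replicate 2), and the replicate block gave -0.11 for *Optn*. Of these genes, only *Ulk1*, *Atg101* and *Ctsl* were past the threshold with all 7 libraries and the deposited values. The cause was not tested. With 2613277 to 4917936 reads in the shallow libraries, genes with few reads there are measured with less precision, and the largest SE among the 39 were 0.995 for *Tfe3*, 0.634 for *Atg4a* and 0.451 for *Pik3r4*.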
